A study of Oryza sativa with 28 samples.

Results

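Gene expression in rice panicles at the uninucleate microspore stage (P4) is described here from 6 RNA-seq libraries, of the 28 samples of the series. The libraries were chosen by their sample labels and form 2 groups, FP4 for fertile WXS(F) panicles and SP4 for sterile WXS(S) panicles, with 3 libraries in each. Both groups are Wuxiang S (WXS), an indica rice line (Oryza sativa). The paper describes its male fertility as set mainly by temperature and little by photoperiod. Both groups carry the mutant tms5 locus that the paper gives for this line. The FP4 plants were moved from the paddy field to a growth chamber at a mean of 22 °C, with 14 h of light and 10 h of dark, when the panicle was about 1 cm long. The SP4 plants stayed in the paddy field in summer under the same day length. The paper describes the field as warmer than the chamber, and the sample labels give no temperature for the field. The labels state that light and humidity in the chamber were held near those outside. Fertility type, temperature and the change from field to chamber therefore cannot be told apart in these libraries. The comparison asks which genes differ between panicles that will shed viable pollen and panicles that will not, at the stage labelled P4. The paper reports abnormal meiosis and tetrads, enlarged tapetal cells and a later breakdown of pollen in WXS(S). Progress of development and loss of cells therefore cannot be told apart from fertility type either.

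In rice anthers the tapetum, the innermost cell layer around the developing pollen, feeds the microspores and then dies by programmed cell death. At the uninucleate stage it makes and exports the lipid precursors of sporopollenin, the polymer of the outer pollen wall, while the microspores have left meiosis and have not yet stored starch. A panicle also holds glumes, lodicules, pistils and stalks, so a value is a sum over all of these tissues, and fewer cells of a type and less RNA per cell cannot be told apart.

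Library totals were 43456997 to 47999509 counts in FP4 and 32771696 to 40415830 counts in SP4. The FP4 libraries also covered more genes at low cutoffs. Genes with any count, at the depth of the smallest library, numbered 33805 to 34999 in FP4 and 27912 to 29437 in SP4. At least 0.5 CPM (counts scaled to library size) were found for 22506 to 22624 genes in FP4 and 21504 to 21795 genes in SP4, and at least 1 FPKM for 17879 to 18182 genes in FP4 and 17375 to 17590 genes in SP4. FPKM, the fragments of a gene scaled to its length and to the library, are used below for levels. At 10 FPKM or more the groups overlapped, with 6375 to 6891 genes in FP4 and 6425 to 6715 genes in SP4. Floral identity genes were expressed in both groups, which shows floral tissue but cannot check stage or fertility type. MADS1, a lemma and palea identity gene, stood at 171, 159.7 and 155 FPKM in FP4 and at 157, 158 and 158 FPKM in SP4. Summed over the 22 loci of the floral list, which are MADS genes and the YABBY gene DL, levels came to 718 to 768 FPKM in FP4 and 780.2 to 838 FPKM in SP4. Libraries of 1 group correlated with each other at r of 0.9639 to 0.9666 across genes on the log2 scale, and no 2 libraries agreed within sampling noise.

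A gene was called differentially expressed when edgeR's quasi-likelihood test gave a Benjamini-Hochberg adjusted p below 0.05 and the absolute log2 fold change, FP4 over SP4, was above 1. Of 24645 genes tested, 15.4% were called higher in FP4 and 6.87% were called lower. The median log2 fold change of all genes tested was 0.0012 and the quartiles were -0.39 and 0.57. Among the 7566 genes with a mean of 10 FPKM or more in the higher group, 778 (10.3%) were upregulated and 347 (4.59%) downregulated. Among the 5572 genes under 1 FPKM, 24.6% were called higher and 9.19% lower. The 15.4% and 6.87% set beside the lists below are over genes of all levels. The 18 gene lists read below hold 191 loci, of which 189 were in the files and 184 passed the filter on low counts and were tested. Of these, 42 were called higher in FP4 and 35 lower. The lists were written from general knowledge by locus number, but with earlier results of these data known. Their counts are therefore a description and not independent evidence. A gene is named only where RefSeq or the study's tables annotate it. The rest are given by their MSU7 locus number with no name.

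**Figure D1:**
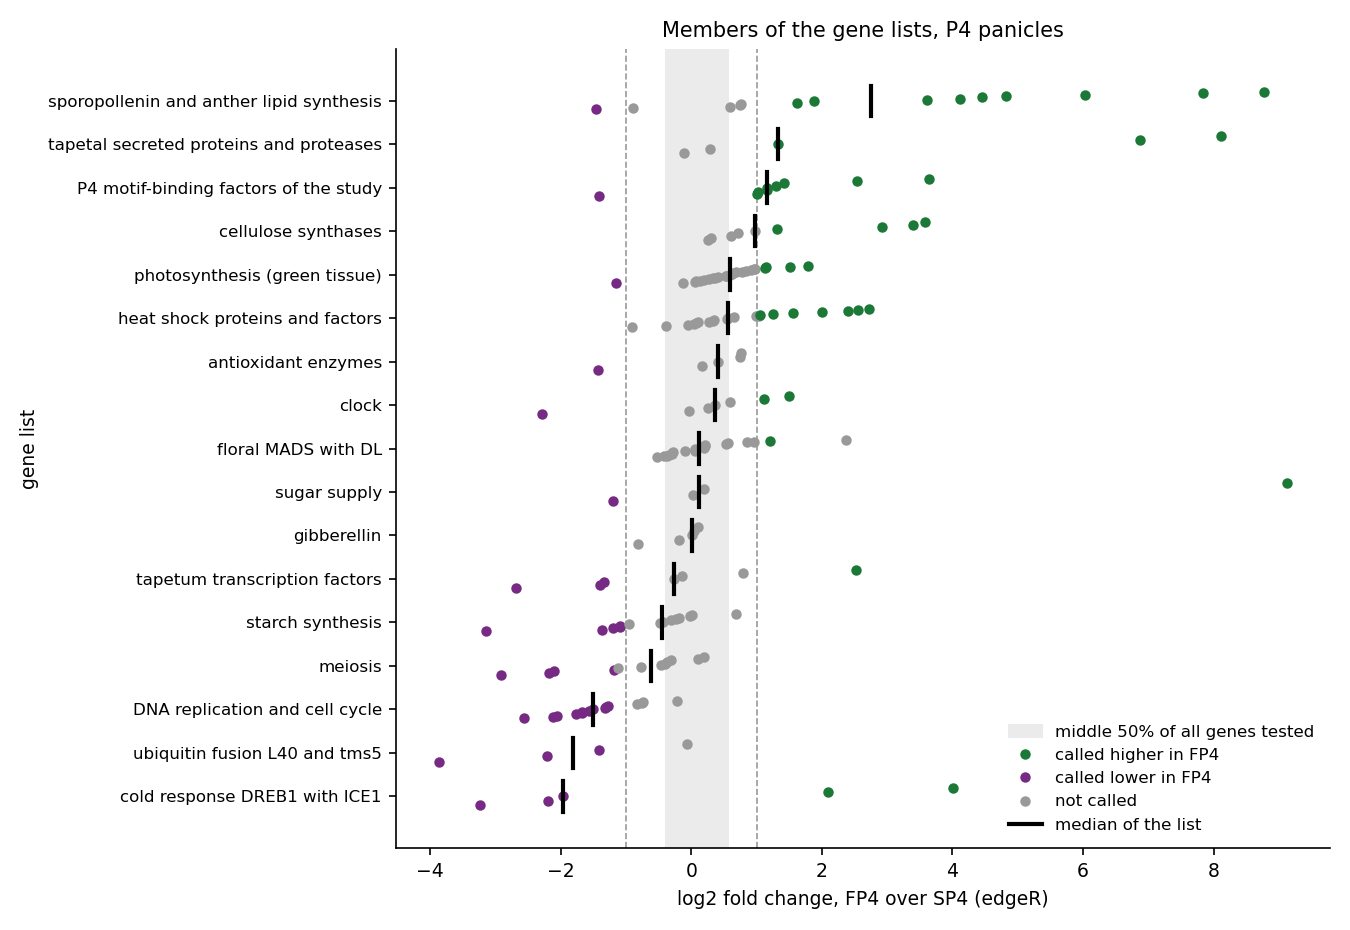
Log2 fold change of each tested list member, FP4 over SP4 (x axis), for 17 of the 18 gene lists (y axis), ordered by the median of the list (black bar). Green points were called higher in FP4, purple points lower and grey points neither, the grey band spans the quartiles of all genes tested (-0.39 to 0.57), and dashed lines mark a log2 fold change of 1 in either direction. The list of sporopollenin and anther lipid genes lies farthest to the right (median 2.75), and 15 of 15 replication and cell cycle loci lie below 0.

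The pollen wall genes showed the widest gap. Of 14 tested loci on the list of sporopollenin and anther lipid synthesis, 9 were called higher in FP4, 1 was called lower and 4 were not called, with a median log2 fold change of 2.75 and a range of -1.46 to 8.78. The share called higher in FP4 over all genes was 15.4%. CYP703A3, a cytochrome P450 that hydroxylates fatty acids for sporopollenin, had 69.0, 68.9 and 62.2 FPKM in FP4 against 2.65, 2.57 and 2.33 FPKM in SP4. Every FP4 library was above every SP4 library, and FP4 was 21.9-fold higher (4.46 ± 0.07 on the log2 scale, with its SE, and adjusted p = 3.5e-07).

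Within this list some loci were near zero in SP4 and well expressed in FP4. LOC_Os03g07140 had 77.2, 81.4 and 72.8 FPKM in FP4 against 0.265, 0.234 and 0.103 FPKM in SP4 (log2 fold change 8.78 ± 0.24, adjusted p = 1.5e-06). LOC_Os06g40550 had 12.01, 12.9 and 11.9 FPKM in FP4 against 0.0270, 0.0559 and 0.0649 FPKM in SP4 (7.84 ± 0.21, adjusted p = 1.5e-06). LOC_Os10g38050 stood at 4.69, 4.60 and 4.55 FPKM in FP4 against 0.0381, 0.101 and 0.0557 FPKM in SP4 (6.04 ± 0.28, adjusted p = 1.2e-05). The deposited counts of these 3 loci in SP4 were between 4 and 39 reads per library, so their folds rest on few reads in that group.

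Other loci were expressed in both groups and many-fold higher in FP4. LOC_Os10g34360, to which the study's tables give the GO terms secondary metabolic process and transferase activity, had 164, 166 and 148 FPKM in FP4 against 5.997, 5.32 and 5.78 FPKM in SP4 (4.82 ± 0.06, adjusted p = 2e-07). LOC_Os03g07250, with the GO term oxygen binding, had 111, 107 and 97.1 FPKM in FP4 against 6.42, 5.39 and 5.64 FPKM in SP4 (4.11 ± 0.04, adjusted p = 1.9e-07). LOC_Os09g32020 was 12.2-fold higher in FP4, LOC_Os01g61940, whose best Swiss-Prot match is an ABC transporter of the G family, 3.69-fold, and LOC_Os03g15710 3.07-fold. As with 99.3% of all genes called higher, their groups did not overlap.

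The remaining 5 loci differed less or the other way. LOC_Os07g22850, which shares the GO term secondary metabolic process, had 21.4, 21.5 and 21.4 FPKM in FP4 against 62.2, 53.7 and 63.4 FPKM in SP4 (-1.46 ± 0.07, adjusted p = 1.2e-05). LOC_Os04g24530 had 76.0, 70.3 and 63.5 FPKM in FP4 against 124, 124 and 145 FPKM in SP4, a log2 fold change of -0.89 ± 0.06 that fell short of the fold threshold. LOC_Os10g33250, LOC_Os10g35180 and LOC_Os11g45400 were between 1.51-fold and 1.70-fold higher in FP4 and were not called. Of the 15 loci on the list, 1 was not in the files.

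Of 5 tested genes for secreted proteins and proteases of the tapetum, 3 were called higher in FP4 and none lower (median log2 fold change 1.33). The shares over all genes were 15.4% higher and 6.87% lower. OsC6, a lipid transfer protein that carries wall lipids to the microspore surface, had 613, 648 and 609 FPKM in FP4 against 2.16, 2.37 and 2.27 FPKM in SP4. The groups were 277-fold apart (log2 fold change 8.11 ± 0.07, adjusted p = 1.4e-07), and OsC6 had the highest level of the 19 tested loci of these 2 lists in FP4. OsC4, another lipid transfer protein of the anther, had 95.9, 105 and 93.6 FPKM in FP4 and 101, 106 and 116 FPKM in SP4, with overlapping groups (adjusted p = 0.16). Of the aspartic proteases of tapetal cell death, AP37 was called and AP25 was not. AP37 had 7.67, 8.02 and 6.92 FPKM in FP4 against 0.0707, 0.0470 and 0.0416 FPKM in SP4 (6.88 ± 0.18, adjusted p = 1.4e-06). Its SP4 counts were 7, 5 and 5, so this fold rests on few reads in that group. AP25 had 16.8, 18.7 and 15.6 FPKM in FP4 and 11.96, 15.6 and 14.7 FPKM in SP4 (adjusted p = 0.062). CP1, a cysteine protease of the anther, was 2.51-fold higher in FP4, at 65.5, 62.6 and 67.0 FPKM in FP4 against 26.5, 25.4 and 27.4 FPKM in SP4 (adjusted p = 1.2e-05).

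**Figure D2:**
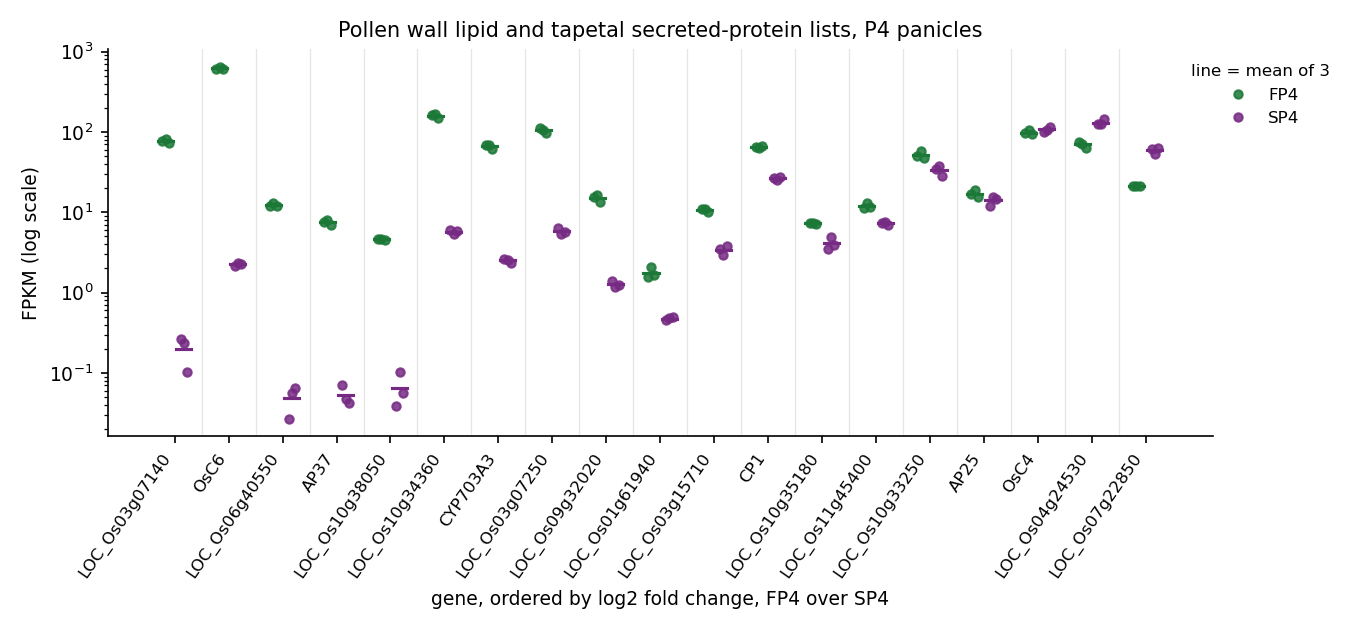
FPKM of each library (y axis, log scale) for the 19 tested loci of the sporopollenin and anther lipid list and the tapetal secreted-protein list (x axis, ordered by log2 fold change), with FP4 in green at the left and SP4 in purple at the right of each gene. Points are libraries and lines are means of 3, and OsC6 stands at 609 to 648 FPKM in FP4 and at 2.16 to 2.37 FPKM in SP4, while OsC4 overlaps.

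The transcription factors of the tapetum were called in both directions. Of 7 loci on this list, 3 were called lower in FP4, 1 was called higher and 3 were not called. Shares over all genes were 6.87% lower and 15.4% higher. The median log2 fold change of the list was -0.27. TIP2, a basic helix-loop-helix (bHLH) factor that acts early in the differentiation of the inner anther wall, had 3.96, 4.49 and 3.68 FPKM in FP4 against 27.4, 24.06 and 30.0 FPKM in SP4 (-2.69 ± 0.10, adjusted p = 5e-06). TDR, a bHLH partner of TIP2 that is required for tapetum degeneration, had 8.85, 8.47 and 10.1 FPKM in FP4 against 24.9, 22.3 and 23.5 FPKM in SP4 (-1.34 ± 0.10, adjusted p = 8e-05). Both were lower in every FP4 library, as was LOC_Os04g39470 of the same list (-1.39 ± 0.08, adjusted p = 2.1e-05). Among all genes called lower, 99.2% likewise had no overlap between the groups.

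The other factors were higher in FP4 or not called. EAT1, a bHLH factor that acts after TDR and switches on the aspartic protease genes, had 11.2, 10.0 and 9.27 FPKM in FP4 against 7.97, 5.98 and 5.32 FPKM in SP4, and its log2 fold change of 0.79 ± 0.15 (adjusted p = 0.0044) stayed under the fold threshold. PTC1, a PHD-finger factor of tapetum cell death and pollen wall formation, was 5.72-fold higher in FP4 at low levels, with 0.613, 0.828 and 0.478 FPKM in FP4 against 0.0866, 0.125 and 0.107 FPKM in SP4 (2.51 ± 0.28, adjusted p = 0.00049). UDT1, an early bHLH factor, and GAMYB, the gibberellin-regulated MYB, overlapped between the groups (adjusted p of 0.58 and 0.12). Summed over the list, the factors came to 37.0 to 42.0 FPKM in FP4 and 76.6 to 83.2 FPKM in SP4, while the sporopollenin list summed to 572 to 640.4 FPKM in FP4 and 246 to 267 FPKM in SP4.

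Genes of DNA replication, the cell cycle and meiosis were called in 1 direction, lower in FP4. Of the 15 loci on the list of DNA replication and cell cycle, 11 were called lower, none was called higher (6.87% and 15.4% over all genes), and all 15 had a log2 fold change below 0, with a median of -1.51. PCNA, the sliding clamp of DNA polymerase, had 11.0, 9.90 and 9.98 FPKM in FP4 against 45.0, 44.0 and 46.6 FPKM in SP4 (-2.12 ± 0.05, adjusted p = 1.1e-06). MCM3, a subunit of the replicative helicase, had 2.38, 2.21 and 2.45 FPKM in FP4 against 13.3, 13.4 and 15.6 FPKM in SP4 (-2.56 ± 0.10, adjusted p = 4.6e-06). Of the other helicase subunits, MCM4, MCM5, MCM6 and MCM7 were 2.43-fold to 4.17-fold lower in FP4 and were called, and MCM2 was 1.69-fold lower and was not.

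Regulators of mitosis were among the called genes. The B-type cyclins CYCB1;1, CYCB2;1 and CYCB2;2 and the A-type cyclin CYCA2;1 were 2.50-fold to 3.19-fold lower in FP4, and each was called. CDKB2;1, a plant-specific kinase of the step into mitosis, had 2.82, 2.45 and 3.11 FPKM in FP4 against 10.6, 7.54 and 11.1 FPKM in SP4 (-1.77 ± 0.19, adjusted p = 0.00036). CDKA;1 and CDKA;2, the kinases present through the whole cycle, and CDKB1;1 were not called (log2 fold changes of -0.74, -0.21 and -0.84). CDKA;2 overlapped between the groups, at 8.93, 6.82 and 4.71 FPKM in FP4 and 9.45, 5.69 and 6.22 FPKM in SP4.

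Of 12 meiosis loci, 4 were called lower in FP4, none was called higher and 8 were not called (6.87% lower and 15.4% higher over all genes), with a median log2 fold change of -0.62. PAIR3, a protein of the meiotic chromosome axis, had 0.383, 0.482 and 0.561 FPKM in FP4 against 4.46, 3.74 and 3.87 FPKM in SP4 (-2.92 ± 0.12, adjusted p = 5.9e-06). PAIR2, a HORMA-domain protein of the same axis, had 0.908, 0.861 and 0.829 FPKM in FP4 against 3.78, 3.995 and 4.10 FPKM in SP4 (-2.18 ± 0.10, adjusted p = 8.7e-06). MEL1, an Argonaute of germ cells, had 5.21, 6.07 and 5.54 FPKM in FP4 against 23.8, 23.1 and 24.8 FPKM in SP4 (-2.11 ± 0.07, adjusted p = 2.4e-06). ZEP1, the central element of the synaptonemal complex, was 2.27-fold lower in FP4 (adjusted p = 0.00019).

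Of the meiosis loci that were not called, DMC1A, the meiotic recombinase, had 3.61, 3.96 and 2.26 FPKM in FP4 and 2.68, 2.96 and 3.26 FPKM in SP4 (0.11 ± 0.18, adjusted p = 0.65). MER3, a helicase of crossover formation, and HEI10, a crossover E3 ligase, had log2 fold changes of -0.32 ± 0.19 and -0.40 ± 0.12 and were not called. PAIR1 varied within both groups, at 0.266, 0.976 and 1.58 FPKM in FP4 and 2.66, 0.738 and 2.92 FPKM in SP4, with a log2 fold change of -1.12 ± 0.80 and an adjusted p of 0.29. LOC_Os05g50410 had a log2 fold change of 0.19 ± 0.08. Summed over the list, meiosis genes came to 26.4 to 28.5 FPKM in FP4 and 55.4 to 62.4 FPKM in SP4. The part of these meiosis transcripts in the tapetum and pollen wall differences was not tested.

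**Figure D3:**
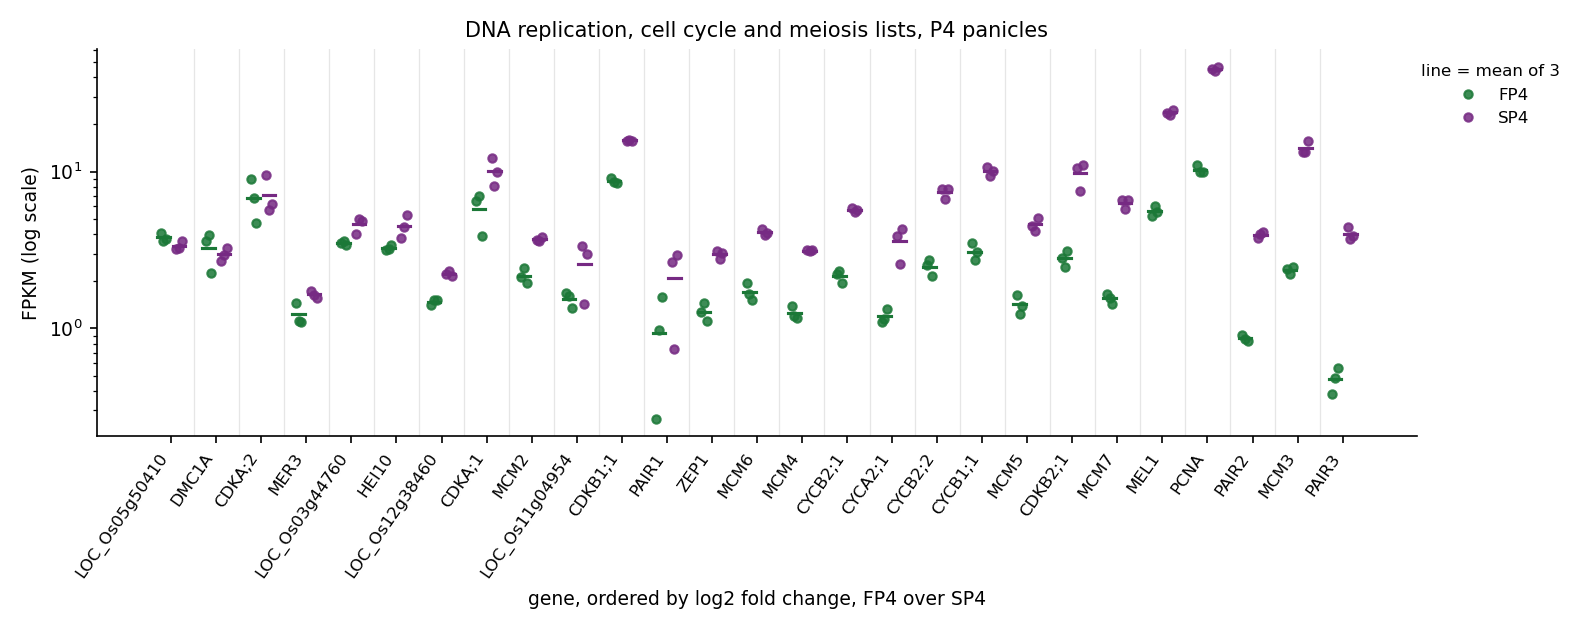
FPKM of each library (y axis, log scale) for the 27 tested loci of the DNA replication and cell cycle list and the meiosis list (x axis, ordered by log2 fold change), with FP4 in green at the left and SP4 in purple at the right of each gene. Points are libraries and lines are means of 3, and at the right end PAIR3, MCM3, PAIR2 and PCNA show the widest separation, with PCNA at 9.90 to 11.0 FPKM in FP4 and 44.0 to 46.6 FPKM in SP4.

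Late pollen markers were near zero in both groups. The 3 MADS loci that the list gives for microspores and pollen stayed at or under 0.0868 FPKM in all 6 libraries and none passed the filter on low counts.

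Cellulose synthases make the cellulose of the plant cell wall. All 9 CESA genes had a log2 fold change above 0, with a median of 0.98, and 4 were called higher in FP4 (15.4% over all genes). The 3 genes of the secondary wall had the largest fold changes of the family. CESA4 had 102, 90.3 and 87.7 FPKM in FP4 against 8.51, 7.06 and 7.98 FPKM in SP4 (3.58 ± 0.08, adjusted p = 9.3e-07). CESA7 had 33.5, 32.3 and 31.8 FPKM in FP4 against 3.24, 2.82 and 3.31 FPKM in SP4 (3.40 ± 0.07, adjusted p = 5.9e-07). CESA9 had 24.3, 22.3 and 22.3 FPKM in FP4 against 3.27, 2.91 and 3.27 FPKM in SP4 (2.92 ± 0.06, adjusted p = 5.9e-07).

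Among the other 6 genes, which include those of the primary wall, CESA8 was called, at 120.5, 125 and 80.3 FPKM in FP4 against 42.3, 50.02 and 39.0 FPKM in SP4 (1.31 ± 0.16, adjusted p = 0.00081). CESA3 lay just under the fold threshold, at 133, 123 and 120.5 FPKM in FP4 against 67.3, 60.4 and 65.5 FPKM in SP4 (0.98 ± 0.05). CESA1, CESA2, CESA5 and CESA6 had log2 fold changes between 0.25 and 0.71. CESA1, at 177, 154 and 152 FPKM in FP4 and 115, 94.3 and 109.8 FPKM in SP4, had the highest level of the family.

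**Figure D4:**
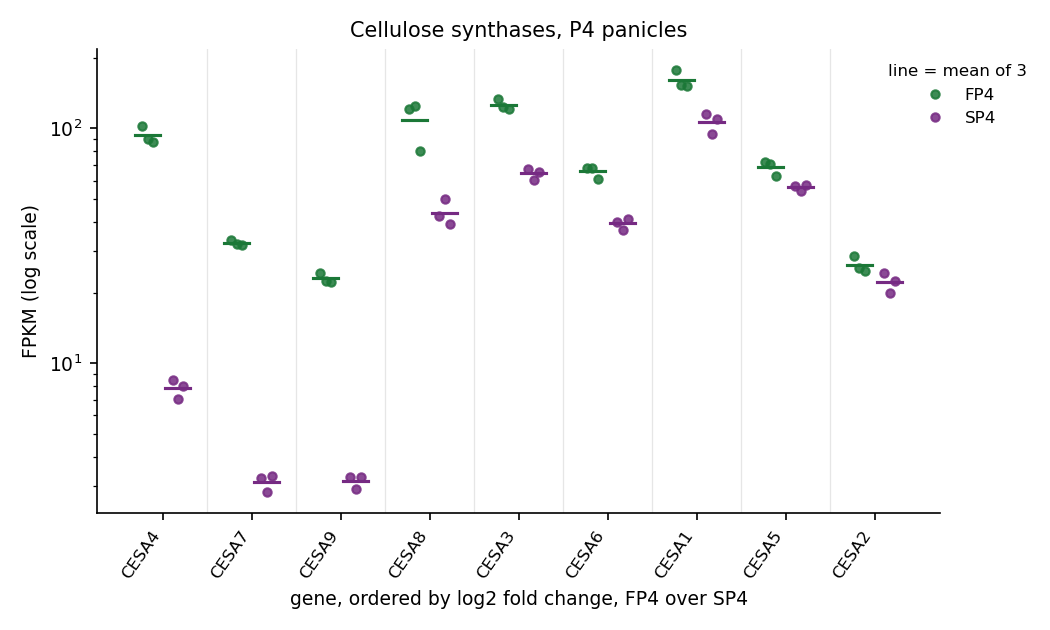
FPKM of each library (y axis, log scale) for the 9 cellulose synthase genes (x axis, ordered by log2 fold change), with FP4 in green at the left and SP4 in purple at the right of each gene. Points are libraries and lines are means of 3, and CESA4, CESA7 and CESA9 lie under 10 FPKM in SP4 and at 22.3 to 102 FPKM in FP4.

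In starch synthesis 5 of 14 tested loci were called lower in FP4 and none higher (6.87% and 15.4% over all genes), with a median log2 fold change of -0.45. AGPS2, a small subunit of ADP-glucose pyrophosphorylase, had 38.3, 36.0 and 32.5 FPKM in FP4 against 75.6, 75.3 and 78.6 FPKM in SP4 (-1.09 ± 0.04, adjusted p = 3.2e-06). SSI, a soluble starch synthase, had 15.1, 15.3 and 13.5 FPKM in FP4 against 30.0, 31.2 and 33.1 FPKM in SP4 (-1.09 ± 0.04, adjusted p = 5e-06). SSIIa, another soluble starch synthase, had 0.288, 0.342 and 0.254 FPKM in FP4 against 2.83, 2.43 and 3.11 FPKM in SP4 (-3.15 ± 0.16, adjusted p = 1.4e-05). LOC_Os07g13980 was 2.30-fold lower in FP4 (adjusted p = 0.00012). GBSSI, the synthase of amylose, was under 1 FPKM in every library, and its groups overlapped in FPKM although it was called on counts (adjusted p = 0.014). BEI, a branching enzyme, and ISA1, a debranching enzyme, had log2 fold changes of -0.23 and 0.01.

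In the sugar supply list 1 of 4 tested loci was higher and 1 lower (15.4% and 6.87% over all genes). LOC_Os01g38670 had 73, 82 and 69 counts in FP4 and 0 in all 3 SP4 libraries, which makes it at least 60.2-fold higher in FP4 when SP4 as a group is set to the limit of 3 counts. SUT1, a sucrose transporter, had 12.3, 10.8 and 11.3 FPKM in FP4 and 11.7, 11.0 and 11.2 FPKM in SP4 (0.03 ± 0.05, adjusted p = 0.68). INV4, an anther cell wall invertase, had 0.0855, 0.0888 and 0.104 FPKM in FP4 against 0.191, 0.255 and 0.271 FPKM in SP4 (-1.20 ± 0.32, adjusted p = 0.021), and no locus of the list was called lower when replicate 1 or 2 of FP4 or replicate 3 of SP4 was left out.

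Of 21 loci on the heat shock list, 7 were called higher in FP4, none was called lower and 14 were not called. FP4 was the group grown in the cooler setting, the 22 °C chamber. Over all genes 15.4% were called higher and 6.87% lower. The median log2 fold change of the list was 0.56. HSFA2a, a heat stress transcription factor, had 3.32, 3.63 and 3.81 FPKM in FP4 against 0.516, 0.608 and 0.508 FPKM in SP4 (2.55 ± 0.15, adjusted p = 2.6e-05). HSFA2c had 16.91, 21.5 and 19.4 FPKM in FP4 against 6.06, 6.66 and 6.74 FPKM in SP4 (1.55 ± 0.10, adjusted p = 3.9e-05). LOC_Os03g16920 had 2.67, 2.59 and 2.46 FPKM in FP4 against 0.376, 0.290 and 0.507 FPKM in SP4 (2.72 ± 0.20, adjusted p = 7.6e-05). HSFA2d and HSFA2e overlapped between the groups.

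Small heat shock proteins were mixed. HSP16.9A had 4.80, 3.86 and 3.15 FPKM in FP4 against 0.672, 0.953 and 1.33 FPKM in SP4 (adjusted p = 0.0011), and HSP24.1 was 2.38-fold higher in FP4 (adjusted p = 1.3e-05). HSP17.4 had a log2 fold change of 0.65 ± 0.18 and HSP26.7 one of -0.90 ± 0.18, both short of the fold threshold, and HSP16.9B and HSP17.7 overlapped. HSP101, a disaggregase that is among the strongest heat-induced genes of plants, had 22.2, 20.4 and 19.1 FPKM in FP4 and 19.7, 19.2 and 22.0 FPKM in SP4 (0.04 ± 0.05, adjusted p = 0.56).

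Larger chaperones included 1 abundant gene with a marked difference. LOC_Os01g62290, whose best Swiss-Prot match is the heat shock protein 70 relative called mediator subunit 37c, had 164, 160.0 and 152 FPKM in FP4 against 29.8, 28.8 and 32.9 FPKM in SP4 (2.40 ± 0.04, adjusted p = 5.7e-07). LOC_Os11g47760 had the highest level of the list, at 1079, 921 and 992 FPKM in FP4 and 933, 924 and 991 FPKM in SP4, and was not called. The HSP90 gene LOC_Os08g39140 was 2.06-fold higher in FP4, and BIP1, the chaperone of the endoplasmic reticulum, had a log2 fold change of 0.55 ± 0.09. Members of these families are alike in sequence, and how reads that match several of them were shared out is not given in the sources used here.

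All 5 loci of the cold list were called, in both directions (22.3% over all genes in either direction). DREB1A, a factor of the cold-inducible DREB1 family, had 0.879, 0.674 and 0.626 FPKM in FP4 against 6.66, 5.84 and 8.51 FPKM in SP4 (-3.24 ± 0.19, adjusted p = 2.8e-05). Its neighbour in number, DREB1B, was 4.59-fold lower in FP4 (adjusted p = 0.0037). DREB1C had 8.14, 9.25 and 8.87 FPKM in FP4 against 0.467, 0.686 and 0.468 FPKM in SP4 (4.01 ± 0.21, adjusted p = 1.6e-05). DREB1G was higher in FP4 at 0.527, 0.356 and 0.477 FPKM against 0.111, 0.0539 and 0.135 FPKM in SP4 (adjusted p = 0.0056). ICE1, the factor that switches on DREB1 genes in Arabidopsis, had 1.57, 1.72 and 1.47 FPKM in FP4 against 5.73, 6.33 and 6.84 FPKM in SP4 (-1.97 ± 0.10, adjusted p = 1.3e-05).

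Of 7 clock loci, 2 were called higher in FP4 and 1 lower, near the shares of all genes (15.4% and 6.87%), with a median log2 fold change of 0.36. LHY, the morning factor of the clock, had 19.3, 18.5 and 18.4 FPKM in FP4 against 93.9, 84.9 and 96.2 FPKM in SP4 (-2.29 ± 0.05, adjusted p = 9.3e-07). GI, which peaks later in the day, had 90.9, 84.7 and 79.2 FPKM in FP4 against 28.7, 26.8 and 29.8 FPKM in SP4 (2.82-fold, adjusted p = 2.1e-06). PRR95 was 2.17-fold higher in FP4 (adjusted p = 8.5e-05), and PRR1, PRR37 and PRR73 had log2 fold changes between 0.25 and 0.59. The hour of harvest is not given in the sources used here.

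Photosynthesis genes marked the green tissue of the panicle. Of 26 tested photosynthesis loci, 4 were called higher and 1 lower, 24 had a log2 fold change above 0, and the median was 0.60. The share called higher was that of all genes (15.4%). CAB2R, a chlorophyll a/b-binding protein, had 337, 366 and 349 FPKM in FP4 against 145, 164 and 172 FPKM in SP4 (1.15 ± 0.08, adjusted p = 4.7e-05). LFNR1, a ferredoxin-NADP reductase of leaves, had 5.02, 4.54 and 4.12 FPKM in FP4 against 1.15, 1.54 and 1.27 FPKM in SP4 (1.79 ± 0.15, adjusted p = 0.00013). LOC_Os07g37240 was 2.85-fold and LOC_Os06g21590 2.19-fold higher in FP4 (adjusted p of 6.8e-06 and 7.3e-05). RBCS-C, a small subunit of Rubisco, went against the list with 8.36, 7.84 and 7.39 FPKM in FP4 against 17.3, 18.1 and 17.6 FPKM in SP4 (-1.15 ± 0.06, adjusted p = 1.9e-05).

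Summed over the list, photosynthesis genes came to 1262 to 1350 FPKM in FP4 and 781 to 850.5 FPKM in SP4. The part of green tissue in the other differences was not tested.

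Gibberellin and antioxidant genes gave 1 call, where 22.3% of all genes were called. None of the 5 gibberellin loci was called (median log2 fold change 0.012), and SLR1, the DELLA repressor of the pathway, had the widest difference, at 21.7, 20.5 and 18.8 FPKM in FP4 against 33.4, 36.6 and 39.0 FPKM in SP4 (-0.82 ± 0.06). GA20ox2, an enzyme of gibberellin synthesis, and GID1, the gibberellin receptor, overlapped. Of 5 antioxidant loci, only APX1, a cytosolic ascorbate peroxidase, was called, at 202, 205 and 189.7 FPKM in FP4 against 532, 544 and 558 FPKM in SP4 (-1.43 ± 0.03, adjusted p = 1e-06). APX2, its paralog, had a log2 fold change of 0.76 ± 0.08 in the other direction, and the catalase genes CATA and CATB had 0.74 ± 0.08 and 0.16 ± 0.04.

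Of the 22 floral loci tested, which are MADS genes and the YABBY gene DL, 21 were not called. Their median log2 fold change was 0.13, and 22.3% of all genes were called. The range was -0.52 to 2.37, and the locus at its upper end was not called. The 1 called gene was MADS55, a factor of the SVP group, at 4.28, 4.50 and 3.85 FPKM in FP4 against 2.03, 1.57 and 1.94 FPKM in SP4 (1.21 ± 0.13, adjusted p = 0.00038). MADS13, an ovule identity gene, had 6.04, 6.75 and 6.199 FPKM in FP4 against 3.04, 3.85 and 3.08 FPKM in SP4, a log2 fold change of 0.96 ± 0.12 just under the threshold. MADS16, the stamen and lodicule gene, had 120.3, 121 and 113 FPKM in FP4 against 151, 155 and 159 FPKM in SP4 (-0.37 ± 0.03). MADS3 and MADS58, which specify stamens and carpels, had log2 fold changes of 0.22 ± 0.08 and 0.20 ± 0.06.

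The tms5 locus encodes RNase Z S1, which in this line is defective and whose normal form cuts the transcripts of the Ub_L40 genes, fusions of ubiquitin and a ribosomal protein. The study names 3 of these genes and chose them for their role in this line, so they are not independent evidence of direction. Of this list of 4 with tms5, 3 were called lower in FP4 (6.87% over all genes) and the median log2 fold change was -1.82. At P4 the tms5 transcript itself had 2.04, 2.57 and 1.94 FPKM in FP4 and 2.24, 2.20 and 2.24 FPKM in SP4 (-0.07 ± 0.14, adjusted p = 0.71). Ub_L40 4, the most abundant of the 3, had 14.7, 15.2 and 12.7 FPKM in FP4 against 209.9, 199 and 221 FPKM in SP4. Ub_L40 2 had 1.90, 1.65 and 1.63 FPKM in FP4 against 7.98, 8.16 and 7.61 FPKM in SP4, and Ub_L40 1 had 1.51, 1.52 and 1.41 FPKM in FP4 against 3.50, 4.66 and 3.95 FPKM in SP4. Ub_L40 4 was 14.6-fold lower in FP4 (adjusted p = 3e-07), Ub_L40 2 4.64-fold (adjusted p = 1.7e-05) and Ub_L40 1 2.68-fold (adjusted p = 0.00056). In the joint model of all 12 libraries the call of Ub_L40 1 was lost (-1.41, adjusted p = 0.066). The Ub_L40 genes share sequence, so reads could have been split between them.

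The difference between the types was also compared with that at meiosis (P3), in FP3 and SP3 panicles, by the interaction term of an edgeR model over all 12 RNA libraries. The interaction passed an adjusted p of 0.05 for 19.8% of the 26392 genes tested. For Ub_L40 4 the P3 values were 33.7, 31.6 and 30.3 FPKM in FP3 against 239, 171 and 156 FPKM in SP3, and the P4 difference was wider by 1.33 ± 0.16 on the log2 scale (interaction -1.33, adjusted p = 0.00025). For Ub_L40 2 the P3 values were 1.43, 1.24 and 1.49 FPKM in FP3 against 2.17, 1.25 and 2.37 FPKM in SP3, with an interaction of -1.70 ± 0.39 (adjusted p = 0.012). Ub_L40 1 had the opposite sign at P3, at 1.60, 1.90 and 1.116 FPKM in FP3 against 0.108, 0.325 and 0 FPKM in SP3 (interaction -4.86 ± 0.86, adjusted p = 0.0029). The tms5 transcript gave an interaction of 0.05 ± 0.20 (adjusted p = 0.91).

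**Figure D5:**
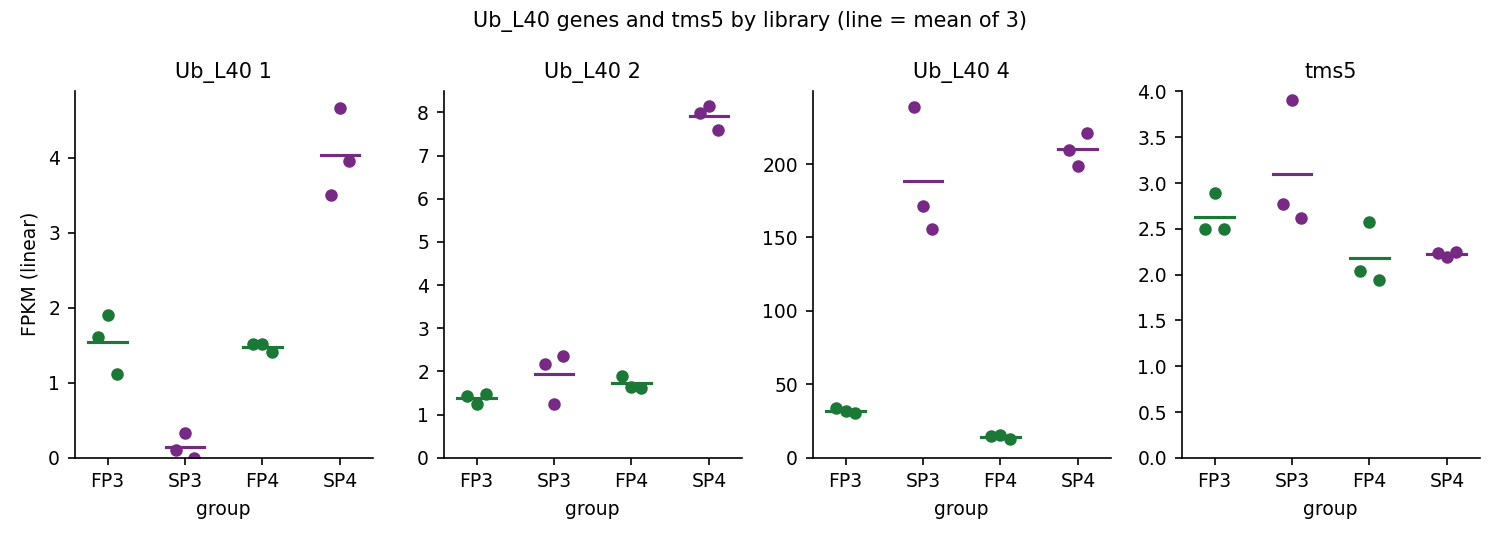
FPKM of each library (y axis, linear, a scale of its own for each gene) for the tms5 transcript and 3 Ub_L40 genes, in P3 and P4 panicles (x axis), with fertile panicles in green and sterile panicles in purple. Points are libraries and lines are means of 3, and Ub_L40 4 stays at 12.7 to 15.2 FPKM in FP4 against 199 to 221 FPKM in SP4.

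The study listed 9 transcription factors by binding motif in P4 open chromatin. They were chosen for changed expression in these same libraries, so their calls are a description. At P4, 8 were called higher in FP4 and 1 lower (15.4% and 6.87% over all genes), with a median log2 fold change of 1.16. ERF141, an ethylene response factor, had 7.34, 8.08 and 7.12 FPKM in FP4 against 0.633, 0.525 and 0.656 FPKM in SP4, and LBD, a LOB-domain factor, had 2.11, 2.56 and 1.88 FPKM in FP4 against 0.442, 0.368 and 0.342 FPKM in SP4. ERF83 was the 1 that was lower, at 2.59, 2.55 and 2.13 FPKM in FP4 against 6.69, 5.26 and 7.73 FPKM in SP4. The others were 2.01-fold to 2.68-fold higher in FP4, close to the fold threshold, and among them ROC4 is a homeodomain factor of the epidermis and OsWR1 a regulator of wax synthesis. ERF130 fell under the fold threshold without replicate 3 of FP4 or replicate 1 of SP4 (0.97 each), and OsWR1 without replicate 2 of SP4 (0.97).

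Of these 9 factors, 5 gave an interaction of type and stage with an adjusted p below 0.05 (19.8% of all genes). Their choice by P4 expression bears on this term too, so the 2 shares cannot be weighed against each other. The count was 3 without replicate 3 of FP4 or without replicate 1 of SP4, where LBD and ERF130 no longer passed, and 4 without any other P4 library. ERF83 had the opposite sign at P3, at 3.55, 3.50 and 3.51 FPKM in FP3 against 2.49, 2.01 and 1.82 FPKM in SP3 (interaction -2.18 ± 0.23, adjusted p = 9.4e-05). ERF141 widened from P3, where it had 6.05, 5.48 and 5.10 FPKM in FP3 against 1.33, 1.96 and 1.18 FPKM in SP3 (interaction 1.71 ± 0.19, adjusted p = 0.00018). ERF65, at 40.3, 38.2 and 38.1 FPKM in FP3 against 10.1, 13.8 and 8.38 FPKM in SP3, narrowed by 0.74 ± 0.13 on the log2 scale (interaction -0.74, adjusted p = 0.0036). ERF130, ERF95 and ERF127 were called at P4 with adjusted p of 7e-05, 0.0016 and 0.0022. GATA10, a factor the study followed up, was singled out after its values were seen, and at P4 it had 1.74, 2.13 and 1.72 FPKM in FP4 against 3.09, 2.81 and 2.97 FPKM in SP4 (-0.65 ± 0.15, adjusted p = 0.011), short of the fold threshold.

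Beyond the lists, the named genes were those with the widest difference among genes that the study's tables or RefSeq annotate, with a mean of at least 10 FPKM in the higher group and no overlap. The annotation at hand covered 2.6% of the genes tested, and 489 of its 526 Swiss-Prot texts were for chromosome 1, so these are examples and not the top of the whole list. These texts are best matches to proteins that are often from other species. In FP4, LOC_Os01g41170, whose match is an anther-specific proline-rich protein, had 211, 198 and 199 FPKM against 0.266, 0.186 and 0.309 FPKM in SP4 (9.54 ± 0.12, adjusted p = 2.2e-07). LOC_Os01g02190, matched to the aquaporin NIP4-1, had 51.3, 55.8 and 51.5 FPKM in FP4 against 0.102, 0 and 0.0745 FPKM in SP4. LOC_Os02g01980, matched to a GDSL esterase or lipase, had 45.0, 46.4 and 40.6 FPKM in FP4 against 0.0721, 0.152 and 0.0318 FPKM in SP4. The deposited counts of these loci in SP4 were between 0 and 21 per library, so their differences rest on few reads in that group.

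Cytochrome P450 matches were also in this set. LOC_Os01g08800, matched to CYP86B1, a fatty acid hydroxylase of Arabidopsis, had 23.0, 24.08 and 21.3 FPKM in FP4 against 0.446, 0.443 and 0.459 FPKM in SP4 (5.67 ± 0.07, adjusted p = 2e-07). LOC_Os01g72270, matched to CYP94A2, was 43.4-fold higher in FP4 (adjusted p = 2.6e-06). The most abundant of these loci was LOC_Os01g70440, matched to a splicing factor, at 398, 427 and 394 FPKM in FP4 against 0.648, 1.35 and 0.926 FPKM in SP4. LOC_Os01g24710, annotated as a salt stress-induced protein, had 263, 287 and 254 FPKM in FP4 against more uneven values of 9.07, 1.88 and 2.08 FPKM in SP4, and LOC_Os01g21250, matched to a cell wall protein, was 20.0-fold higher in FP4.

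Annotated genes that were lower in FP4 included chromosome proteins. LOC_Os01g67740, a match to the condensin subunit SMC2, had 1.78, 1.62 and 1.27 FPKM in FP4 against 11.9, 10.53 and 12.1 FPKM in SP4 (-2.88 ± 0.10, adjusted p = 4.1e-06). LOC_Os01g31800, a probable histone H2A, had 3.98, 4.18 and 3.86 FPKM in FP4 against 28.7, 27.3 and 30.8 FPKM in SP4 (-2.83 ± 0.07, adjusted p = 1.3e-06). LOC_Os01g52470, annotated as elongation factor 2, the translocase of translation, had the widest difference of these annotated genes, at 1.04, 1.06 and 1.10 FPKM in FP4 against 36.5, 37.2 and 41.0 FPKM in SP4, or 35.2-fold. LOC_Os01g15900, matched to a cyclic Dof factor, was 7.87-fold lower in FP4, LOC_Os01g51770, a porin of the outer mitochondrial membrane, 6.58-fold, and LOC_Os01g66700, a beta-hexosaminidase, 5.89-fold.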

How the data were processed

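RNA-seq was measured by the authors in 3 biological replicates each of FP4 and SP4. Libraries were strand-specific. Reads were mapped with HISAT2 against MSU7 and quantified with StringTie (versions not given in the sources used here). The authors deposited estimated counts, whole and not normalized, and FPKM for each gene. The estimated counts were used as deposited, since rounding changed none of them. Groups came from the sample titles, all 12 columns of both tables mapped to a sample, and 0 columns were left out.

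Counts were tested with edgeR 4.0.16 in R 4.3.3 (filterByExpr, TMM, glmQLFit, glmQLFTest) on the 6 P4 libraries, and the interaction of type and stage on all 12 RNA libraries. P-values were Benjamini-Hochberg adjusted over all genes tested. An SE is the absolute log2 fold change divided by the square root of the quasi-likelihood F. Alternatives were DESeq2 1.42.0, no TMM factors, DESeq2 size factors, no filter, at least 10 counts in every library, a joint model of the 12 libraries, limma 3.58.1 with a pseudocount of 1 or 0.1 added to FPKM before the log2, the replicate number as a block, and leaving out each library. The steps were tested on simulated counts that varied less between libraries than these data, so that test cannot show how they perform here. Summaries used numpy 2.4.6 and pandas 2.3.3 under Python 3.11.15. The labels do not say that libraries of a group came from separate plants, so p-values measure the spread between these libraries. With 3 against 3, a single exact permutation test cannot go below p = 0.1, and none was used. A group at 0 was set to 3 counts. The authors also averaged replicates and ran DESeq, and those results were not used. No sequence is given.

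Members and lists were chosen with earlier results of these data known. Named were the Ub_L40 genes, tms5 and the P4 factors of the study. From each list came up to 4 called members with the largest change (a mean of at least 1 FPKM in the higher group, no overlap) and the most abundant member. From all annotated genes came the 10 with the largest change in each direction at 10 FPKM or more. Other members are given to fill in a list. Files do not pair locus numbers with names. The 178 loci of the 16 general lists were written from general knowledge, 110 had that name in RefSeq (assembly ASM3414082v1) on the same chromosome and in the same order of loci (10 RefSeq aliases were added after the files were seen), and unmatched loci carry no name. Of the named loci, HSP16.9A and HSP16.9B fell on the same RefSeq gene, so RefSeq order does not tell them apart. The study's Swiss-Prot texts number these heat shock proteins 1 and 2. The 38 families planned from annotation text could not be read, because the reference holds no MSU7 locus number.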

Additional observations from a re-analysis of the deposited data

Results flagged for a closer look

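For 8 of the 13 genes tested, the difference between FP4 and SP4 differed from that between FP3 and SP3, by the interaction term of the edgeR model (adjusted p below 0.05, 19.8% of all genes). The P4 factors among them were chosen by the study for changed expression in these P4 libraries. Their share therefore cannot be weighed against that of all genes. The terms, on the log2 scale, were -4.86 for Ub_L40 1, -1.70 for Ub_L40 2, -1.33 for Ub_L40 4, -1.15 for LBD, 1.71 for ERF141, 0.54 for ERF130, -0.74 for ERF65 and -2.18 for ERF83. Those of LBD (adjusted p = 0.030) and ERF130 (adjusted p = 0.041) lay near the threshold. The SP3 level of Ub_L40 1 was 0.325 FPKM or less in each library, so its term rests on few reads.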

How the results depend on the processing

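Calls in FP4 over SP4 were 3800 higher and 1694 lower. They numbered 2441 higher with at least 10 counts in every library, and 1789 higher and 704 lower with limma on log2(FPKM + 1). Leaving out each library gave 3600.0 to 3955 higher and 1585 to 1697 lower. Without TMM factors the median of all genes moved to -0.107 and 63.6% of calls were higher, against 69.2%, and with no filter the median was 0.361. The replicate numbers did not pair the libraries (correlations of -0.0395, -0.0147 and 0.0018), and with the replicate block 3466 were higher and 1518 lower.

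Of the lists, the study's P4 factors gave 5 higher with limma on log2(FPKM + 0.1) and 3 on log2(FPKM + 1). The floral list gave 2 higher with DESeq2, with all 12 libraries and with limma at 0.1, 0 with limma at 1, and 1 to 3 leaving out a library (2 without FP4 replicate 2, 3 without SP4 replicate 2). Sugar supply gave 0 lower with the replicate block, all 12 libraries and both limma fits, 0 without FP4 replicate 1 or 2 or SP4 replicate 3 and otherwise 1, and 0 higher with limma at 1 and with 10 counts everywhere. Starch gave 3 lower and tapetum factors 0 higher with limma at 1. Cold response gave 1 higher with limma at 1 and with 10 counts everywhere, antioxidants 1 higher with both limma fits, late pollen MADS 1 lower with all 12 libraries, and heat shock 1 lower without TMM and without FP4 replicate 3, and 0 leaving out any other library.

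The interaction of LBD was -1.18 with no filter, -0.73 and -0.15 with limma at 0.1 and 1, and -1.32 to -0.97 leaving out a library. That of ERF130 was 0.43 without TMM, 0.52 with no filter and 0.47 to 0.61 leaving out a library. LBD lost its call without FP4 replicate 1 or 3 or SP4 replicate 1, and ERF130 without any P4 library but FP4 replicate 1 (P3 libraries were not left out), as both did at the other settings given. OsWR1 passed with DESeq2 (0.85), DESeq2 size factors (0.85) and 10 counts everywhere (0.84). The tms5 term, not called, was -0.080 without TMM and -0.093 to 0.11 leaving out a library. Uncalled genes that changed sign were SUT1 (-0.075 without TMM, -0.0066 without SP4 replicate 3 and up to 0.061 leaving out another library), LOC_Os11g47760 (-0.026) and MADS1 (-0.053), both without TMM. The cause was not tested. Of 1165 values for named genes, 1141 kept direction and call and 20 in 10 genes lost the call (ERF95, ERF127, ERF130, OsWR1, ROC4, ZEP1, LOC_Os07g13980, DREB1B, MADS55 and, with all 12 libraries, Ub_L40 1).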
